A study of Mus musculus with 19 samples.

Results

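The zinc finger genes numbered Zfp900 to Zfp999, together with Zfp600, were followed across mRNA libraries of mouse embryonic stem cells with and without the RNA-binding proteins Trim71 and Lin28a. The deposited table of 21685 gene symbols held 58 of these genes. A gene entered the tests when at least 4 libraries had a value of at least 10 normalised units (3.32 on the log2 scale of the table), which 57 of the 58 genes and 14988 of all genes did. Zfp963 reached that level in 1 library and was not tested, its values lying between 2.83 and 3.38. Zfp939 and Zfp972 were just inside, with 13 and 10 libraries at or above the level. Among the 57 genes, 12 were singled out as a cluster (Zfp600, Zfp978, Zfp980, Zfp981, Zfp982, Zfp985, Zfp987, Zfp988, Zfp990, Zfp991, Zfp992 and Zfp993), and the other 45 are called the remaining members below. The cluster was selected on its lower values after Trim71 loss in cells with Lin28a (KO-WT against WT-WT), so that comparison is given as a description and carries no test.

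Many zinc finger proteins of this number range carry a KRAB domain, which recruits the co-repressor Trim28 and, through it, histone methyltransferases and DNA methylation. In embryonic stem cells these proteins are known for silencing endogenous retroviruses and other repeats, each binding particular elements through its array of zinc fingers. Their genes have spread by duplication and lie in families of close copies, one of them on the distal part of mouse chromosome 4. Trim71 is a stem cell protein that binds and represses messenger RNAs and is itself a target of let-7 microRNAs, and Lin28a blocks the maturation of let-7 precursors.

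The cells were male C57BL/6 embryonic stem cells (mESC) grown in serum with leukaemia inhibitory factor and sorted for the surface antigen SSEA-1 on magnetic beads. The comparison was of 4 genotypes, each named with the Trim71 state first: WT-WT (Trimfl/fl - Lin28afl/fl), KO-WT (Trim-/- - Lin28afl/fl), WT-KO (Trimfl/fl - Lin28a-/-) and KO-KO (Trim-/- - Lin28a-/-). Trim71 loss was induced with 500 nM 4-hydroxytamoxifen for 2 days, with at least 7 days of further culture. The number of libraries used was 4 for WT-WT, 4 for KO-WT, 5 for WT-KO and 5 for KO-KO, over 5 days named in the labels. Cells with Lin28a came from clones 1 and E3 and cells without it from clones 1-4 and C1, so Lin28a genotype and clone cannot be told apart. No label says that libraries of a genotype came from separate cultures, and p-values measure only the spread between these libraries, from which day effects had already been removed.

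Trim71 itself was at 10.21 ± 0.12 (SD, n = 4) in WT-WT and 8.89 ± 0.14 (n = 4) in KO-WT, and at 10.65 ± 0.20 (n = 5) in WT-KO and 9.28 ± 0.18 (n = 5) in KO-KO. The highest library labelled Trim71-null (9.55) was below the lowest labelled Trim71-intact (10.04). All 8 stem cell markers on the list passed the filter, with summed levels of 15.15 to 15.34 on the log2 scale in the genotypes with Lin28a and 15.45 to 15.64 in those without it. Trophectoderm markers (6 of 8 tested) had summed levels of 12.06 to 12.48 in the genotypes with Lin28a and 9.91 to 10.36 in those without it, and primitive endoderm markers (6 of 8 tested) 10.59 to 11.34 and 8.05 to 9.15. Fibroblast markers (3 of 8 tested) summed to 6.56 to 6.97 with Lin28a and 6.12 to 6.42 without it. Sums ran over all listed genes with deposited values, 4 for the fibroblast list and 8 for each other list. They weigh the most abundant genes most, and single markers differed. In WT-KO against WT-WT, Krt8 (-4.22), Krt18 (-4.20), Hand1 (-2.88) and Gata3 (-1.47) were below 0, but Eomes (0.13) and Tfap2c (0.13) were not. Of the fibroblast markers, Col1a2 (-1.88) and Col1a1 (-0.87) were below 0 and Thy1 (0.14) was not. All 6 tested primitive endoderm markers were below 0. The part of other cell types in the Lin28a comparisons was not tested, and fewer cells of a type cannot be told apart from less RNA per cell.

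The Lin28a-null libraries of day 3 stood apart for these genes. The mean over the 12 cluster genes was 7.11 in the WT-KO library of day 3, against 7.42 to 7.70 in the other WT-KO libraries. In the KO-KO library of day 3 it was 7.50, against 7.00 to 7.23 in the other KO-KO libraries. Their Trim71 levels, 10.57 in the WT-KO library and 9.24 in the KO-KO library, followed their labels. The counts of members called in the comparisons that use these libraries are given with and without them. Leaving both out was chosen after their values had been seen. The Lin28a-null libraries of day 4 lay at the opposite ends, the WT-KO library highest of its genotype (7.70) and the KO-KO library lowest (7.00). No fit left out both of those day 4 libraries.

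All 12 cluster genes lie within a single stretch of chromosome 4 in GENCODE release M21, on the plus strand. The stretch holds 33 tested genes, of which 5 are remaining members (Zfp986, Zfp989, Zfp979, Zfp984 and Zfp933) and 16 belong to neither set, among them the zinc finger genes Rex2 and Zfp534. Zfp990 opens the stretch and Zfp933 closes it. The other 40 remaining members lie on other chromosomes, 13 of them on chromosome 17 and 9 on chromosome 7. The stretch was defined after the values had been seen.

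Close copies make the values of some of these genes uncertain, because the counting method is not given in the sources used here. Each gene's transcripts were cut into all runs of 100 bases and the share also found in another gene's transcripts was counted. The share was low for Zfp985 (1.73%), Zfp982 (3.06%), Zfp990 (3.60%) and Zfp981 (12.2%). It was 28.6% for Zfp992, 44.6% for Zfp988, 45.6% for Zfp980 and 60.5% for Zfp978. For Zfp600 it was 67.8%, most of it shared with Rex2 (58.7%). Zfp991 shared 70.3%, Zfp987 70.8% and Zfp993 71.9%, in the last case chiefly with Zfp991 (68.5%).

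The promoters of several genes of the stretch were close copies too. RefSeq promoter sequences (GRCm38.p6) were at hand for 8 of the 12 cluster genes, and for 3 of the 5 remaining members in the stretch. The 250 bases before the annotated start are shown for 4 cluster genes and for Zfp979, a remaining member on the opposite strand, because they share the run ATTGGGCGG in the same surroundings. Capitals mark that run. The promoter of Zfp933, at the end of the stretch, is shown for contrast and does not hold it.
Zfp600, chr4:146156577-146156826, plus strand: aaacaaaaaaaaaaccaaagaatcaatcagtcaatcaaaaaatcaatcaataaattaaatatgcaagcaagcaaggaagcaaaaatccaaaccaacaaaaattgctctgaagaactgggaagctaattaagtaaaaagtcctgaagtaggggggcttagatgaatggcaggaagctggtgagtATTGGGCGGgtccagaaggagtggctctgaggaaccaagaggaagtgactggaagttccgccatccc
Zfp980, chr4:145670447-145670696, plus strand: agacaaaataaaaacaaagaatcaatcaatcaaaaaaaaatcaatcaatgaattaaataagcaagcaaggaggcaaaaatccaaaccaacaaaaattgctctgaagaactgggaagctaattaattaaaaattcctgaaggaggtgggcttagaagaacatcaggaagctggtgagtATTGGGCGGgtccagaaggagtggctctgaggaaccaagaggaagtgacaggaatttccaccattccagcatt
Zfp982, chr4:147492167-147492416, plus strand: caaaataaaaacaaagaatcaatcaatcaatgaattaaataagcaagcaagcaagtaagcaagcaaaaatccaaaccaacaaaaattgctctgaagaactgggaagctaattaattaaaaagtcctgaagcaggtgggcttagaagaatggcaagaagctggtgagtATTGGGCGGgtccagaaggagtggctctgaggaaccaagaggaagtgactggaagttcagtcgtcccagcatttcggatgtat
Zfp985, chr4:147553027-147553276, plus strand: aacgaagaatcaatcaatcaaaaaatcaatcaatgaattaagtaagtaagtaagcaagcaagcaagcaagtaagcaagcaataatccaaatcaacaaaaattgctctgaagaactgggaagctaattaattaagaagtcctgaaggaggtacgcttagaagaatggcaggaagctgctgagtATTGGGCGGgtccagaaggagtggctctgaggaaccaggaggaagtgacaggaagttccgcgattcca
Zfp979, chr4:147642509-147642758, minus strand: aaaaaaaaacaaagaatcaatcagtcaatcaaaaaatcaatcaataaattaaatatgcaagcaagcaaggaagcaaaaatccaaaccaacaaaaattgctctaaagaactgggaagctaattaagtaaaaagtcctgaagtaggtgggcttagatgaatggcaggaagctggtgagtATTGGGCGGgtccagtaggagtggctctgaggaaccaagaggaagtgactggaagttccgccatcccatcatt
Zfp933, chr4:147848419-147848668, minus strand: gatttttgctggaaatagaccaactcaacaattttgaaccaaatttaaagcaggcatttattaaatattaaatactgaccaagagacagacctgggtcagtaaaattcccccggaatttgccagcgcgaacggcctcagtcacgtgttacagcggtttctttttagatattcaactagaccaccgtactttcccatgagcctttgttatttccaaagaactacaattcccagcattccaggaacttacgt

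The run was chosen after the sequences had been read, and was searched on both strands of windows of 300 bases. It overlaps the GC box letters GGGCGG and, read on the other strand, the CCAAT box letters. A gene was counted when any of its promoter entries held the run. That was so for 6 of the 8 cluster genes with promoters (Zfp600, Zfp980, Zfp981, Zfp982, Zfp985 and Zfp988). It was also so for 2 of the 3 remaining members of the stretch (Zfp979 and Zfp984). Zfp982 has a further promoter entry without the run, which is not shown. Of the remaining members elsewhere, 2 of 37 held it (Zfp947 and Zfp994), and of all 27025 genes in the table of promoters 82, or 0.303%. Pairwise identity between the 8 promoters of the stretch that hold the run was 59.7% to 94.8%, with a median of 76.3% over 28 pairs. A match is a description of letters and not a binding site.

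With Lin28a present, all 12 cluster genes were lower in KO-WT than in WT-WT, by a median of 0.72 on the log2 scale (fitted differences of -0.98 to -0.36). The difference was largest for Zfp990 (-0.98 ± 0.11, SE), whose KO-WT level was 50.8% of that in WT-WT. Zfp990 was at 7.23, 7.23, 7.28 and 7.34 in the WT-WT libraries and at 6.28, 6.40, 6.23 and 6.26 in the KO-WT libraries. Zfp985 followed (-0.92 ± 0.13), at 8.36, 8.30, 8.44 and 8.27 in WT-WT and 7.46, 7.45, 7.31 and 7.49 in KO-WT. No library of one genotype reached the range of the other for either gene.

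Zfp981 (-0.91 ± 0.16) and Zfp978 (-0.91 ± 0.13) stood at 53.1% and 53.3% of their WT-WT levels. Zfp992 (-0.79 ± 0.10), Zfp991 (-0.77 ± 0.13) and Zfp988 (-0.68 ± 0.17) came next. Smaller differences were fitted for Zfp600 (-0.62 ± 0.12), Zfp982 (-0.57 ± 0.11), Zfp987 (-0.54 ± 0.17), Zfp980 (-0.51 ± 0.18) and Zfp993 (-0.36 ± 0.11). Zfp982 has been described as a factor that sustains stem cell character. Each of the 12 was lower in KO-WT on all 3 days with both genotypes, and none had overlapping libraries. Among all tested genes, 25.4% were lower on all 3 days and 15.3% had lower values with no overlap. Nothing is read from these counts, since this comparison chose the cluster.

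The remaining members had a median difference of -0.26 in the same comparison, 41 of 45 below 0, with a range from -0.66 (Zfp976) to 0.11 (Zfp972). The 5 in the chromosome 4 stretch had a median of -0.50 and the 40 elsewhere -0.23. The 272 tested Zfp genes with other numbers had a median of -0.11, and all tested genes -0.005. Differences in this comparison ran with base composition: across 14724 genes the rank correlation with the GC content of the transcript was 0.50, and the median GC content was 36.1% in the cluster, 38.6% in the remaining members and 50.1% in all tested genes. After a correction for GC content and length the cluster median was -0.50 and that of the remaining members -0.08.

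**Figure D1:**
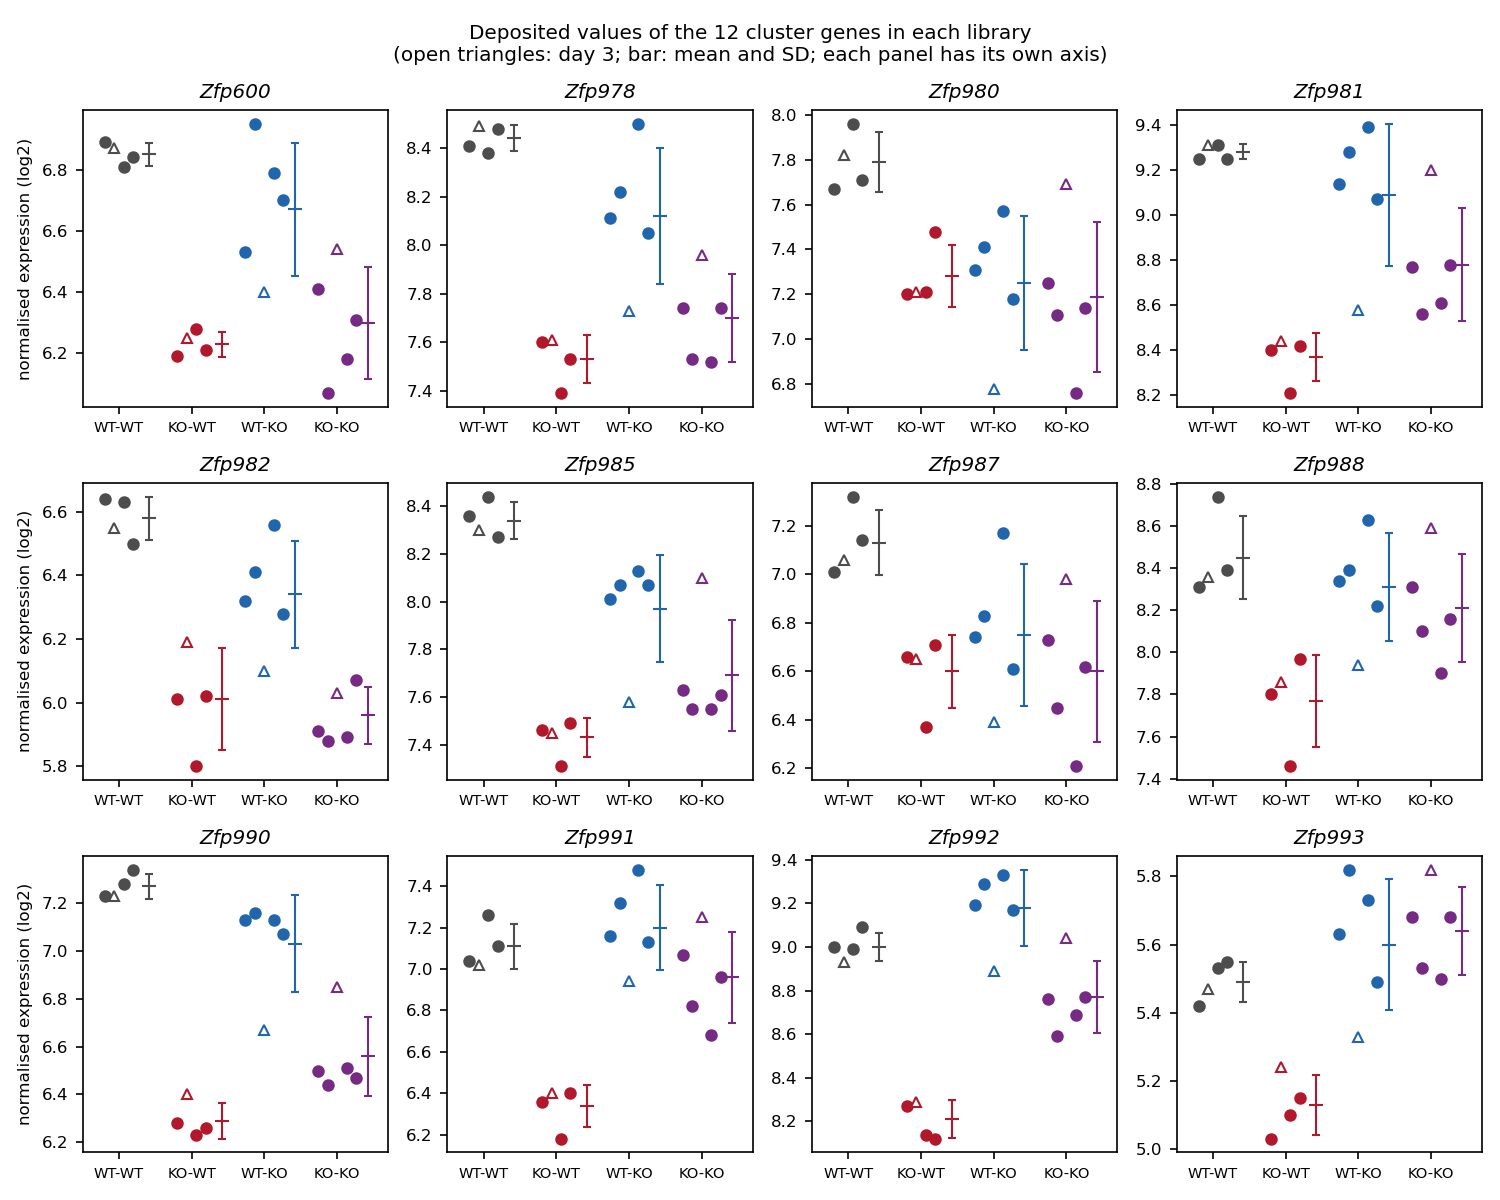
Deposited log2 values (y axis) of the 12 cluster genes in each library by genotype (x axis), with the mean and SD to the right of each group and open triangles for day 3. KO-WT libraries sit below WT-WT libraries in all 12 panels, and in 11 panels (all but Zfp982) the WT-KO triangle is below the KO-KO triangle.

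Without Lin28a, 5 of the 12 cluster genes were lower in KO-KO than in WT-KO with an adjusted p under 0.05 (limma with Benjamini-Hochberg adjustment over all 14988 genes): Zfp990, Zfp978, Zfp992, Zfp982 and Zfp600. In that direction 4.12% of all tested genes passed. None of the 45 remaining members passed in either direction, where 8.38% of all tested genes did. An unadjusted p under 0.05 (limma) was found for 3 of the 45 and for 3413 of all 14988 tested genes. The cluster median was -0.30, with 11 of 12 below 0, against -0.001 for the remaining members and -0.009 for all tested genes. This comparison shares no library with the one that chose the cluster. The 12 genes were still picked with earlier results of these data known, so these counts may not be independent of that choice.

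Zfp990 fell by 0.48 (SE 0.097, adjusted p = 0.00614, limma), to 71.8% of its WT-KO level. Its WT-KO libraries were at 7.13, 7.16, 6.67, 7.13 and 7.07 and its KO-KO libraries at 6.50, 6.44, 6.85, 6.51 and 6.47. The lowest WT-KO value and the highest KO-KO value are both of day 3, and without that pair the ranges were apart. Zfp992 fell by 0.40 (SE 0.087, adjusted p = 0.00947, limma), from 9.19, 9.29, 8.89, 9.33 and 9.17 in WT-KO to 8.76, 8.59, 9.04, 8.69 and 8.77 in KO-KO. Again the day 3 libraries alone crossed. For Zfp982 the libraries were at 6.32, 6.41, 6.10, 6.56 and 6.28 in WT-KO and 5.91, 5.88, 6.03, 5.89 and 6.07 in KO-KO, a fall of 0.38 (SE 0.090, adjusted p = 0.0160, limma). It was the 1 cluster gene whose genotypes did not overlap and that was lower on all 5 days, properties held by 6.55% and 10.4% of all tested genes. Its call was lost under 6 alternative fits and held under 24, and those of Zfp990 and Zfp992 were each lost under 2.

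Zfp978 fell by 0.43 (SE 0.11, adjusted p = 0.0308, limma), with 8.11, 8.22, 7.73, 8.50 and 8.05 in WT-KO and 7.74, 7.53, 7.96, 7.52 and 7.74 in KO-KO. Zfp600 fell by 0.37 (SE 0.10, adjusted p = 0.0329, limma), with 6.53, 6.95, 6.40, 6.79 and 6.70 in WT-KO and 6.41, 6.07, 6.54, 6.18 and 6.31 in KO-KO. In both genes the groups overlapped through the low WT-KO and high KO-KO libraries of day 3. Both also share most of their sequence with other genes. The call of Zfp978 was lost under 11 alternative fits and held under 19, and that of Zfp600 was lost under 10 and held under 20.

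The other 7 cluster genes did not pass. Zfp981 differed by -0.31 (adjusted p = 0.175, limma), with WT-KO libraries at 9.14, 9.28, 8.58, 9.39 and 9.07 and KO-KO libraries at 8.77, 8.56, 9.20, 8.61 and 8.78. Zfp985 differed by -0.28 (adjusted p = 0.139, limma), with 8.01, 8.07, 7.58, 8.13 and 8.07 against 7.63, 7.55, 8.10, 7.55 and 7.61. In both genes the day 3 values fell inside the range of the other genotype, and the 4 other days did not overlap. For Zfp991 (-0.25, adjusted p = 0.193, limma) WT-KO read 7.16, 7.32, 6.94, 7.48 and 7.13, and KO-KO 7.07, 6.82, 7.25, 6.68 and 6.96.

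Zfp987 stood at 6.74, 6.83, 6.39, 7.17 and 6.61 in WT-KO and 6.73, 6.45, 6.98, 6.21 and 6.62 in KO-KO, a difference of -0.15 ± 0.15 (SE). Zfp988 read 8.34, 8.39, 7.94, 8.63 and 8.22 in WT-KO against 8.31, 8.10, 8.59, 7.90 and 8.16 in KO-KO (-0.09 ± 0.14). The genotypes of both genes overlapped on days other than day 3 as well. Zfp980 was at 7.31, 7.41, 6.78, 7.57 and 7.18 against 7.25, 7.11, 7.69, 6.76 and 7.14 (-0.06 ± 0.16). Zfp993, the 1 cluster gene with a fitted difference above 0 (0.04 ± 0.094), read 5.63, 5.82, 5.33, 5.73 and 5.49 in WT-KO and 5.68, 5.53, 5.82, 5.50 and 5.68 in KO-KO. The errors of these 4 genes are as large as, or close to, their differences.

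Day by day, the median difference of the cluster between KO-KO and WT-KO was -0.25 on day 1, -0.53 on day 2, 0.40 on day 3, -0.70 on day 4 and -0.25 on day 5. On day 3, 11 of the 12 genes were higher in KO-KO, while on each other day at least 10 of 12 were lower. Of the 12 genes, 10 were lower on each of days 1, 2, 4 and 5, as were 10 of the 45 remaining members and 16.6% of all tested genes. The remaining members also rose and fell with the day, with medians of 0.02, -0.06, 0.37, -0.30 and 0.01. The rank correlation of the same-day differences with transcript GC content across 14724 genes was -0.06, 0.06, -0.29, 0.37 and -0.07 on these days. After correction for GC content and length, the cluster median on day 3 was 0.22, against 0.23 in the remaining members. On the other days the corrected cluster medians were -0.24, -0.42, -0.44 and -0.24, and those of the remaining members lay between -0.08 and 0.04.

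With both Lin28a-null libraries of day 3 left out, 8 of the 12 cluster genes passed and the cluster median was -0.47, with 12 of 12 below 0. The added genes were Zfp985 (-0.48), Zfp981 (-0.54) and Zfp991 (-0.39). Among the remaining members Zfp936 then passed, while 2.93% of all tested genes passed as lower. No such fit was made without both Lin28a-null libraries of day 4, the day of the largest fall. With only the WT-KO or only the KO-KO library of day 3 left out, 7 passed. With 1 other library left out at a time, the count was 4 without the WT-KO library of day 1, 2 or 3 without the WT-KO library of day 2, 4 or 5 or the KO-KO library of day 1, 2, 4 or 5, and 5 without any library of WT-WT or KO-WT. Zfp990 and Zfp992 passed in all of these fits. None of the 12 passed when the fit held clones E3 and C1 (median -0.31) or days 3 to 5 (median -0.20). In clones 1 and 1-4, which were not sampled on day 3, 5 of 12 passed and the median was -0.28.

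**Figure D2:**
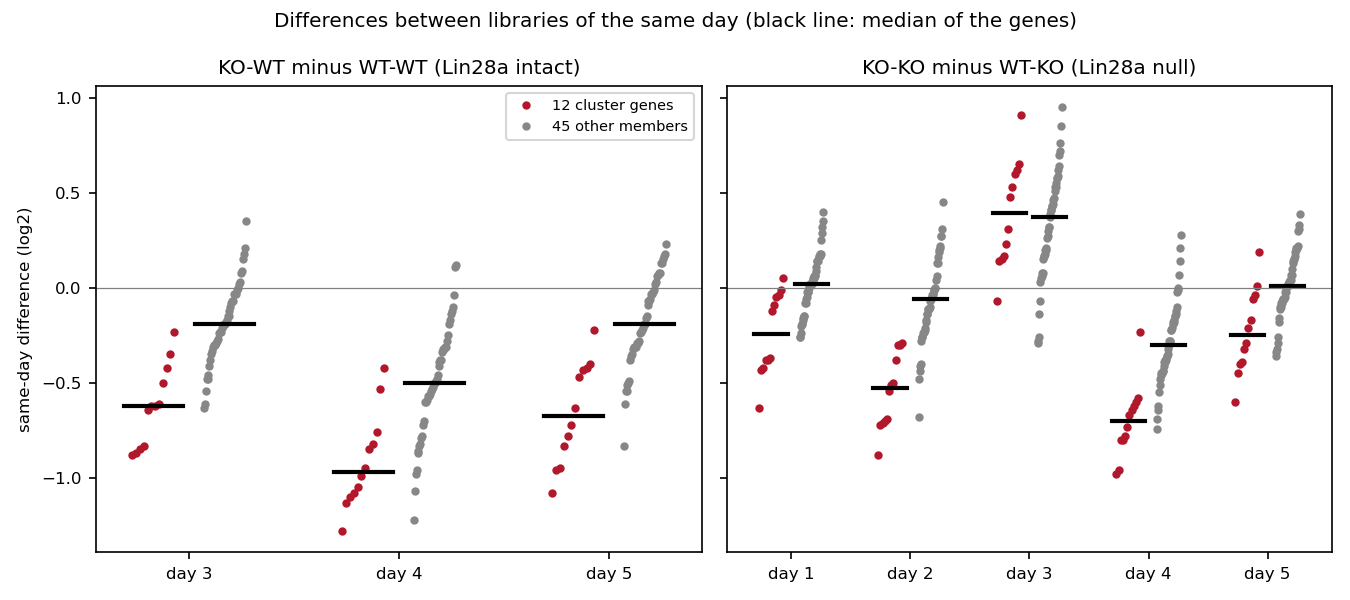
Difference between the Trim71-null and the Trim71-intact library of each day (y axis, log2) for each gene, in cells with Lin28a (left) and without it (right), with a black line at the median of the genes. The cluster median is below 0 on every day but day 3 of the Lin28a-null cells, where it is 0.40, and there the remaining members also lie above 0.

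The fitted difference of Trim71 loss was closer to 0 without Lin28a than with it for all 12 cluster genes. The gap between both fitted differences had a median of 0.47 (range 0.19 to 0.63) in the cluster, 0.27 in the remaining members and 0.004 in all tested genes. The gap was also above 0 for 42 of the 45 remaining members, and for 7631 of all 14988 tested genes. It contains the values that chose the cluster. No member had an adjusted p under 0.05 for the gap (limma), with unadjusted values under 0.05 for 8 of the 12, 18 of the 45 and 15.1% of all tested genes, so the effects with and without Lin28a are not shown to differ for any of them. Split by shared sequence, the 4 cluster genes with under 15% of shared sequence had a median of -0.35 in KO-KO against WT-KO and 2 calls, and the 8 with over 25% had -0.20 and 3 calls.

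**Figure D3:**
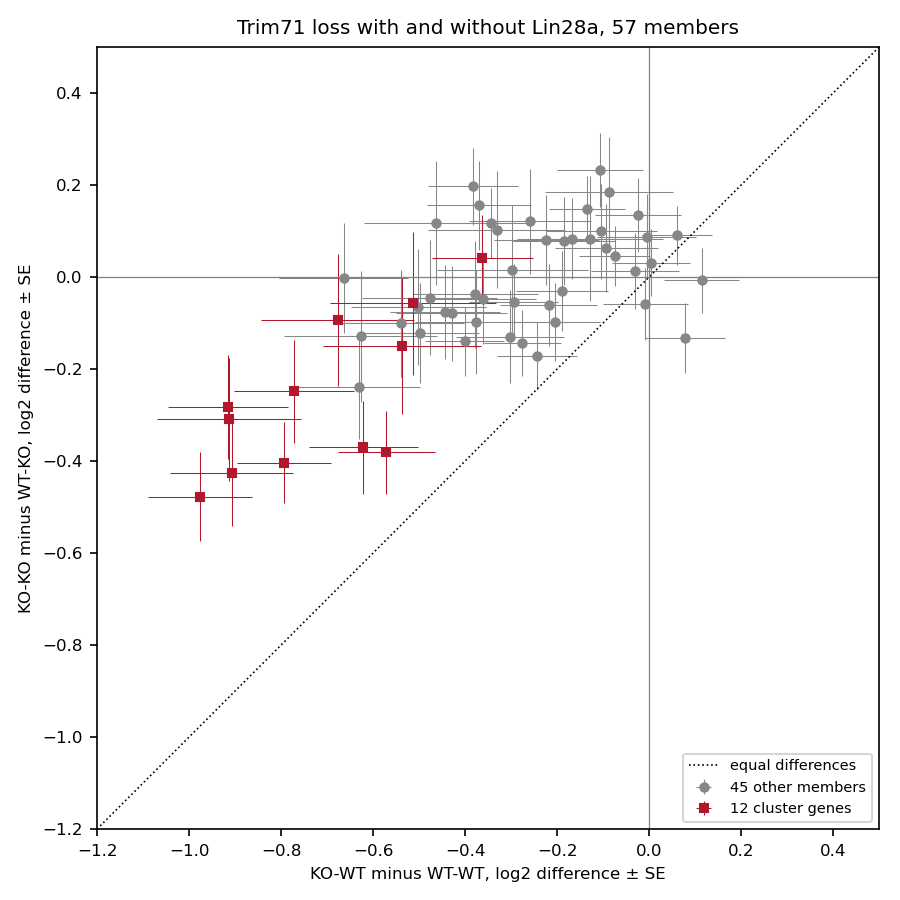
Fitted log2 difference with Trim71 loss in cells with Lin28a (x axis) and without it (y axis) for the 57 genes, with SE bars and a dotted line of equal differences. The 12 cluster genes (squares) all lie above the line, as do 42 of the 45 remaining members (circles). The remaining members spread along 0 on the y axis, from -0.24 to 0.23.

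Of the remaining members, 6 had the largest differences between KO-KO and WT-KO in either direction, and none passed the test. Zfp936 (-0.24 ± 0.11 SE, adjusted p = 0.223, limma) was at 7.15, 7.34, 6.75, 7.30 and 7.14 in WT-KO and 6.98, 6.67, 7.21, 6.84 and 6.80 in KO-KO. Its day 3 libraries crossed in the same way as those of the cluster genes, though it lies on chromosome 7. Zfp940 (-0.17 ± 0.074, adjusted p = 0.172, limma) was lower on all 5 days, on day 2 by less than the rounding shows, with 6.77, 6.62, 6.83, 6.90 and 6.75 against 6.58, 6.62, 6.54, 6.61 and 6.65. Zfp964 (0.23 ± 0.080, adjusted p = 0.0844, limma) was higher in KO-KO on all 5 days, with 3.79, 3.90, 3.62, 3.65 and 3.71 against 3.47, 3.45, 3.56, 3.52 and 3.50. Zfp951 (0.20 ± 0.084), Zfp931 (0.19 ± 0.12) and Zfp971 (0.16 ± 0.097) were also higher, with overlapping libraries.

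Within the stretch, genes that fell stood between genes near 0. Of the 16 genes that belong to neither set, 2 fell in KO-KO against WT-KO: Gm13212 (-0.27 ± 0.071, adjusted p = 0.0274, limma), next to Zfp990, and the long noncoding RNA Gm13166 (-0.30 ± 0.083, adjusted p = 0.0354), between Zfp600 and Zfp992. Both lost the call without the WT-KO library of day 1, 4 or 5 or the KO-KO library of day 1, 2, 4 or 5. Those 2 are 12.5% of the 16, where 4.12% of all tested genes were called lower. The median of the 16 was -0.10 and 14 were below 0, as were 8008 of all 14988 tested genes. The 5 remaining members of the stretch had a median of -0.06 and no call, with no unadjusted p under 0.05. Of all 14988 tested genes, 3413 had an unadjusted p under 0.05 (limma). The 10 tested genes on each side had a median of -0.003 and no call, with such a p for 7 of the 20. The lowest of them was the pseudogene Gm13230, just before Zfp990 with 1 tested gene between, at -0.41 ± 0.12 (adjusted p = 0.0537, limma) and at -0.86 in the comparison with Lin28a, within the range of the cluster genes in both. It passed in 9 of the alternative fits, among them the one without both Lin28a-null libraries of day 3 (-0.52). Zfp933, at the far end, differed by 0.09 ± 0.094 and by -0.01 ± 0.10 in the comparison with Lin28a. Rex2 (-0.61) and Zfp534 (-0.75) were lower in KO-WT than in WT-WT, at -0.09 and -0.15 in KO-KO against WT-KO.

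**Figure D4:**
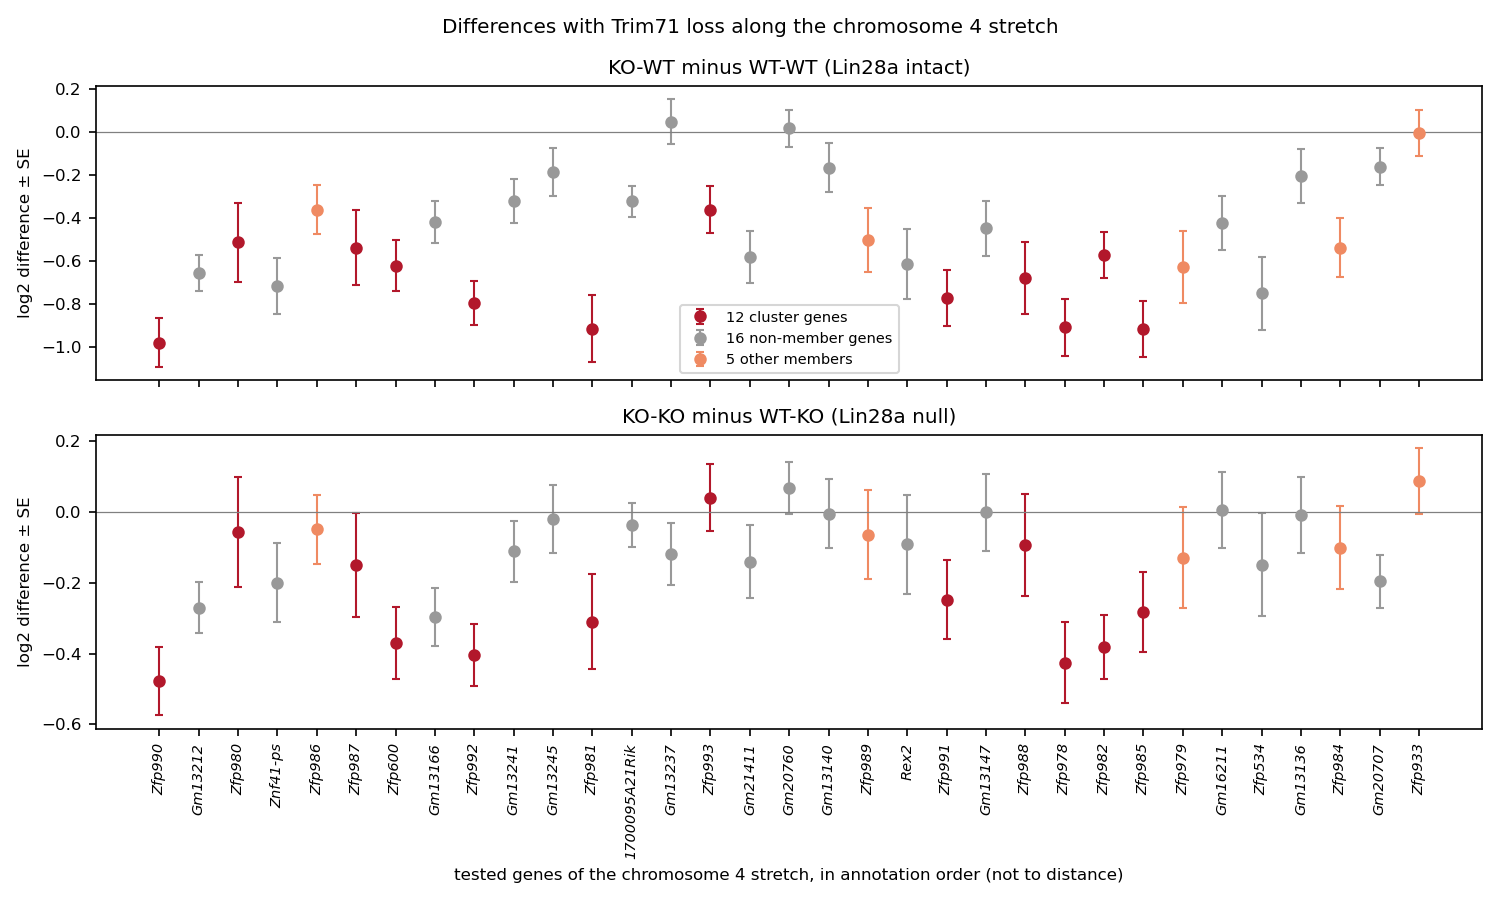
Fitted log2 difference ± SE with Trim71 loss (y axis) for the 33 tested genes of the chromosome 4 stretch in annotation order (x axis), with Lin28a (top) and without it (bottom). Genes at -0.37 or lower in the bottom panel are Zfp990, Zfp978, Zfp992, Zfp982 and Zfp600, and cluster genes near 0 stand between them.

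With Trim71 present, 2 of the 12 cluster genes were lower in WT-KO than in WT-WT, Zfp980 (-0.54 ± 0.17, adjusted p = 0.0160, limma) and Zfp985 (-0.37 ± 0.12, adjusted p = 0.0214), and none was higher. This is below the share of all tested genes called lower (22%). The WT-WT libraries also entered the choice of the cluster, which favours a fall beforehand. The cluster median was -0.21. Leaving out 1 library at a time gave 0 calls without the WT-WT library of day 4, 1 lower without the WT-WT library of day 1, and 4 or 5 lower without the WT-KO library of day 2 or 4 or the KO-KO library of day 3 or 4. Without the WT-KO library of day 3 neither gene passed, Zfp992 was called higher (0.28) and the cluster median was -0.09. With both Lin28a-null libraries of day 3 left out, Zfp980 and Zfp985 were lower, Zfp992 was higher (0.25) and the median was -0.12. After correction for GC content and length, 2 were lower and 3 higher (Zfp991, Zfp992 and Zfp993), with a median of -0.08.

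Among the remaining members 16 of 45 (35.6%) were lower in WT-KO than in WT-WT and 1 was higher. Of all tested genes 22% were lower and 20.3% higher. The median of the remaining members was -0.13. After correction for GC content and length, 13 of the 45 were lower and 9 higher, with a median of -0.02. In that fit 19.3% of all tested genes were lower. Without both Lin28a-null libraries of day 3 the counts were 13 and 2, where 19.2% of all tested genes were lower. Zfp948 had the largest fall, by 0.78 (SE 0.11, adjusted p = 2.4e-05, limma). It stood at 6.73, 6.77, 6.86 and 6.63 in WT-WT and 5.99, 6.09, 5.69, 6.14 and 5.89 in WT-KO. Those libraries did not overlap, as was so for 20.7% of all tested genes in that direction. Zfp949 (-0.65), Zfp960 (-0.64) and Zfp964 (-0.57) were also lower, as were all 4 remaining members on chromosome 8. The gene that rose was Zfp946 (0.41 ± 0.089), from 5.15, 5.08, 5.24 and 5.22 to 5.60, 5.58, 5.50, 5.79 and 5.44.

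Without Trim71, 5 cluster genes were higher in KO-KO than in KO-WT and none was lower, where 20.8% of all tested genes were higher and 22% lower. These were Zfp991 (0.62 ± 0.12, adjusted p = 0.000650, limma), Zfp992 (0.57 ± 0.094), Zfp993 (0.51 ± 0.10), Zfp988 (0.44 ± 0.15) and Zfp981 (0.42 ± 0.14). Zfp992 rose from 8.27, 8.29, 8.14 and 8.12 in KO-WT to 8.76, 8.59, 9.04, 8.69 and 8.77 in KO-KO, with no overlap. The count was 3 without the KO-KO library of day 3 or the KO-WT library of day 2 or day 4, where Zfp988 and Zfp981 lost the call. The cluster median was 0.26, and 0.13 without the KO-KO library of day 3. Without both Lin28a-null libraries of day 3, 5 were higher with a median of 0.18, Zfp990 (0.20) in place of Zfp988. Both Lin28a comparisons use libraries that also enter the Trim71 comparisons, so their values are not independent of those above. The cluster was selected on low values in these same KO-WT libraries, which favours a rise in KO-KO beforehand. The 5 cluster calls are therefore a description. Of the remaining members 10 of 45 (22.2%) were higher, near the share of all genes, and 4 were lower (8.89%). Without both Lin28a-null libraries of day 3, 8 were higher and 3 lower. The largest rise was again that of Zfp946 (0.65 ± 0.089), and Zfp948 (-0.48), Zfp949, Zfp960 and Zfp964 were lower here too. The call of Zfp964 (adjusted p = 0.0439, limma) was lost under 15 alternatives, among them the one without both of those libraries, and held under 14. That of Zfp960 (adjusted p = 0.0436) was lost under 11 and that of Zfp949 under 4. On chromosome 17, 5 of the 13 remaining members were higher and 2 lower.

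The partners of KRAB zinc finger proteins were examined for Trim71 loss in Lin28a-null cells. Of 28 tested genes from a list of 30 symbols for this silencing machinery, 1 was higher (3.57%) and none lower, with a median of -0.03, where 4.26% of all tested genes were higher and 4.12% lower. Leaving out 1 library at a time gave 0 calls in 4 of 18 fits and 4 without the WT-KO library of day 3. That gene was Chd3 (0.21 ± 0.055, adjusted p = 0.0246, limma), a remodeller of the NuRD complex. Trim28, the shared co-repressor, differed by -0.06 ± 0.047, and Setdb1, its histone methyltransferase, by 0.10 ± 0.034 (adjusted p = 0.0905). Among 10 tested of 14 listed zinc finger genes with known target elements, Zfp57, which protects imprints, rose (0.27 ± 0.049, adjusted p = 0.00248). Zfp932 and Zfp961, which are on that list and among the remaining members, differed by -0.03 and -0.14. Of 30 listed genes of the 2-cell-like state, in which such repeats are active, only Pramel6, Pramel7, Eif1a and Eif4e3 passed the filter. None of these 4 was called (limma), and 1 had an unadjusted p under 0.05, as did 3413 of all 14988 tested genes. The listed Zscan4 genes, Zfp352 and Dux were not tested, so these values do not measure that state. Of the 272 other numbered Zfp genes, 4 fell (1.47%) and 6 rose (2.21%), where 4.12% and 4.26% of all tested genes did, with 4 to 6 calls in all when the WT-KO library of day 1, 4 or 5 or the KO-KO library of day 1 or 2 was left out.

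The genes outside the number range whose values over the 18 libraries were most like the mean of the cluster were Wdr75 (Pearson r = 0.96), Tcea1 (0.95), Platr25 (0.94), Gm21411 (0.94) and Zfp640 (0.94). Wdr75 acts in ribosomal RNA synthesis and Tcea1 in transcript elongation, and Gm21411 lies in the stretch. Their differences in KO-KO against WT-KO were -0.09, -0.19, -0.24, -0.14 and -0.25. The correlations describe these libraries, which share genotypes and days. They include the WT-WT and KO-WT libraries whose difference chose the cluster, so likeness within the cluster is partly set by that choice. Among the members themselves, Zfp981 followed the mean of the other cluster genes most closely (r = 0.99), and Zfp936 (0.89) was the remaining member most like the cluster.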

How the data were processed

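The data are 1 table of mRNA sequencing values for 19 libraries of mouse embryonic stem cells. Per the labels' protocols, RNA was extracted with TRIzol, libraries were made with the TruSeq kit and sequenced in paired ends on a HiSeq1500. The submitters' processing notes name CASAVA 1.8, STAR and DESeq2 without their roles; the genome build, annotation and counting method are not given in the sources used here. The deposited values are normalised expression on a log2 scale, as their range (-0.71 to 16.3) and the near-equal library sums after undoing the logarithm show, and sequencing depth is unknown. The authors had removed day effects from the deposited values, since no gene had a day term above 1.7e-08. Day 6 held a single library (KO-WT), which matched the average of its genotype within 1.5e-08 and was left out, leaving 18. Libraries are paired across genotypes by the day in the labels; replicate numbers are in accession order.

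Genes with at least 10 units in at least 4 of the 18 libraries (14988, 69.1%) were fitted with limma 3.58.1 in R 4.3.3 (genotype plus day, trended variance, 10 residual degrees of freedom), with Benjamini-Hochberg adjustment over all of them; called means an adjusted p under 0.05. On simulated data for KO-KO against WT-KO (14988 genes, 200 changed by 1 log2 unit, 5 simulations) a median of 99.5% were recovered and 4.31% of calls were false. The cluster differences fitted in that comparison were smaller (-0.48 to 0.04), and recovery of changes of that size was not simulated. Genes were simulated as independent of each other. Groups come from the labels. The members and lists were chosen with earlier results of these data known. The 12 cluster genes are described in full, with the 6 remaining members of largest absolute difference in KO-KO against WT-KO, listed genes, the 5 non-members most correlated with the cluster mean, and Trim71 and Lin28a as label checks (Lin28a was at 9.74 to 10.26 where intact and 8.21 to 8.57 where null). Other genes named (Gm13212, Gm13166, Gm13230, Rex2, Zfp534, Zfp946, Zfp948 and those named for passing a test) were chosen after their values were seen, as were the stretch, its flanks, the split by shared sequence and the promoter run. Transcript GC content and length (98.2% of tested genes), order of genes and shared runs of 100 bases come from GENCODE M21; promoters come from RefSeq (GRCm38.p6), aligned with Biopython 1.88. Alternatives changed the filter, scaling, day term, libraries and clones, and corrected for GC content and length.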

Additional observations from a re-analysis of the deposited data

Results flagged for a closer look

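For the 12 cluster genes and 6 remaining members, 72 groups of 4 or 5 libraries were searched for a library far from the others of its genotype. Of these groups 6 (8.33%) held one. The groups are not independent, since the cluster genes move together across libraries and day effects had been removed. A rate of about 1 in 20, which holds for independent groups, is therefore no yardstick here. Both Lin28a-null libraries of day 3 account for 4 of them. Zfp985 was at 7.58 in the WT-KO library of day 3, where the nearest other was 8.01, and at 8.10 in the KO-KO library of day 3, where the nearest was 7.63. Zfp990 was at 6.67 in the same WT-KO library (nearest 7.07) and at 6.85 in the same KO-KO library (nearest 6.51). The remaining 2 were Zfp980 in the KO-WT library of day 5 (7.48, nearest 7.21) and Zfp988 in the WT-WT library of day 4 (8.74, nearest 8.39).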

How the results depend on the processing

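The 5 cluster calls in KO-KO against WT-KO were the same in number with no replicate block (no day term), under both scalings, both filters and with GC and length correction, and 6 with all 19 libraries. Fits with no replicate block run on values from which the day was already removed, so their p-values are too small. Where the main fit with the day block gave 0 remaining members, 1256 genes in all, 2 cluster calls for Lin28a loss with Trim71, 1 silencing partner, 0 genes of the 2-cell-like list and 10 other Zfp genes, the fit with no replicate block gave 1, 2618, 6, 5, 1 and 26, and all 19 libraries gave 2, 2957, 6, 6, 1 and 32. Fitting only both genotypes compared gave 3 cluster calls and 794 genes for Trim71 loss without Lin28a, 7 cluster calls for Lin28a loss with Trim71, 0 partners and 5 other Zfp genes. Clones E3 and C1 alone gave 0 cluster calls and 153 genes in KO-KO against WT-KO; 0 cluster, 5 remaining and 2323 genes in WT-KO against WT-WT; 3, 7 and 3595 in KO-KO against KO-WT; and 0 partners, 0 zinc finger genes with known elements and 1 other Zfp gene. Clones 1 and 1-4 alone gave 287 genes, 4 cluster calls in WT-KO against WT-WT, 2 remaining members and 2293 genes in KO-KO against KO-WT, 0 partners and 2 other Zfp genes. Days 3 to 5 alone gave 0 cluster calls and 217 genes, 1 cluster call in WT-KO against WT-WT, 3 cluster and 8 remaining members in KO-KO against KO-WT, 0 partners, 0 with known elements and 4 other Zfp genes. GC and length correction with the replicate block gave 5 cluster calls in WT-KO against WT-WT (2 lower, 3 higher), 2 partners, 16 other Zfp genes and a cluster median of -0.50 in KO-WT against WT-WT. The filter at 50 units left 11 remaining members called in WT-KO against WT-WT and 5 in KO-KO against KO-WT. No filter and 75th percentile scaling each gave 6 other Zfp genes. Without both Lin28a-null libraries of day 3, a choice made after seeing the data, 8 cluster genes, 1 remaining member and 2 partners were called in KO-KO against WT-KO.

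Leaving out 1 library at a time gave 2 to 7 cluster, 0 to 1 remaining and 676 to 1392 genes in KO-KO against WT-KO; 0 to 5 cluster calls, 13 to 20 and 5384 to 6553 in WT-KO against WT-WT; 3 to 7, 11 to 15 and 5382 to 6590 in KO-KO against KO-WT; 0 to 4 partners, 4 to 12 other Zfp genes, and medians of -0.77 to -0.67 for the cluster and -0.30 to -0.18 for the remaining members in KO-WT against WT-WT. Uncalled differences near 0 changed sign. Leaving out 1 library at a time, Zfp980 ranged from -0.226 to 0.0869, Zfp988 from -0.221 to 0.0171 and Zfp993 from -0.0495 to 0.123; Zfp980 was at 0.0227 in days 3 to 5, and Zfp993 at -0.0112 in clones E3 and C1 and -0.0704 without both Lin28a-null libraries of day 3. The causes were not tested. Depth is unknown, so the precision of low genes such as Zfp964 cannot be stated.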
